A study of Saccharomyces cerevisiae with 8 samples.

Results

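The messenger RNA of 38 general stress genes of the Msn2/Msn4 type was followed in commercial baker's yeast, Saccharomyces cerevisiae, through 4 frozen storage times. The genes were taken from a list of named stress genes. This list and the other gene lists below were chosen with earlier results of these data known. Counts set beside all genes are thus descriptive. Each gene was read by its brightest probe set that matched a single gene. Genes for heat shock proteins, trehalose, glycogen and antioxidant enzymes were left out. All 38 had such a probe set among 5656 genes on the array, and 36 passed a filter on dim probe sets that left 5188 genes in all. XBP1 and RTN2 did not pass it and are given as values only. The filter asked for a mean log2 signal over all arrays of at least 4.16. GAD1 lay under this at 0 and 3 days (3.02 and 3.90) and passed through its 7 and 14 day signals (6.24 and 5.97). SOL4 was just under it at 0 days (4.14), and RTC3 (3.86) and USV1 (2.61) at 3 days. These genes are kept in the counts below.

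The yeast was compressed commercial yeast suspended at an OD600 of 30 in a fermentation medium that lacked sucrose and maltose, and every sample, 0 days included, was thawed at 30 °C for 10 min before RNA was taken. The groups were storage at -20 °C for 0, 3, 7 and 14 days, with 2 independent samples each and 1 Affymetrix array per sample. No strain name, genotype or ploidy is given in the labels. The comparisons ask how the messenger RNA of the thawed cells depended on the length of freezing.

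Msn2 and Msn4 are zinc finger transcription factors that yeast cells use against many kinds of stress. When glucose is plentiful, the Ras and cyclic AMP pathway and its protein kinase A hold them in the cytoplasm. When growth signals fall or cells are stressed, they enter the nucleus and bind stress response elements in front of a broad set of genes. The products of these genes harden the cell wall, protect membranes and proteins from drying, clear reactive aldehydes and shift carbon into storage and NADPH production.

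Values below are probe set signals after quantile normalisation, on a linear scale, and differences are log2 fold changes with standard errors from limma. Before normalisation the lowest array median was 51.6 and the highest 110, and the number of arrays limits the precision. Signals of ribosomal RNA probe sets moved with freezing time: relative to the median of the array they measured 8.85 and 6.76 for 0 days, 7.73 and 11.3 for 3 days, 17.0 and 22.7 for 7 days and 21.6 and 15.7 for 14 days. Their part in the results below was not tested. For ACT1, whose 3' over 5' signal gauges RNA and labelling quality, that ratio was 1.54 in replicate 1 and 2.86 in replicate 2 of 0 days, and between 1.41 and 2.78 on the other arrays.

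The stress genes lay higher on the 7 and 14 day arrays than on the 3 day arrays, and the 0 day arrays were split. Relative to the 0 day mean, the median of the 36 genes lay at 0.70 and -0.70 on the log2 scale in replicates 1 and 2 of 0 days. At 3 days it lay at 0.07 and -0.44, at 7 days at 1.28 and 0.79, and at 14 days at 1.54 and 1.15. Both late groups were thus above both 3 day arrays, and above 0 day replicate 1 by a smaller margin than above replicate 2. In RNA from whole cultures, a change in every cell and a change in the share of cells that hold a transcript cannot be told apart. Over all 5188 genes, the same median stayed between -0.02 and 0.19 on every array. Quantile normalisation gives all arrays the same distribution of signals, so it largely holds this median near 0 and the flatness is no separate result.

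**Figure D1:**
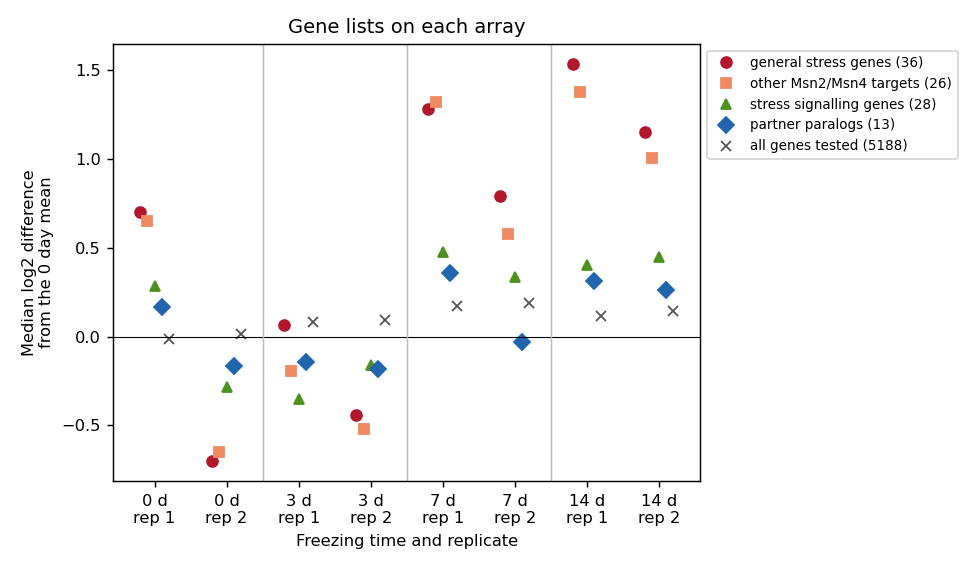
Median log2 difference from the 0 day mean (y axis) on each of the 8 arrays (x axis, by freezing time and replicate) for 5 groups of genes, 1 point per array. The general stress genes reach 1.54 at 14 days, against -0.44 in 3 day replicate 2, while all genes tested stay between -0.02 and 0.19. Quantile normalisation largely holds the median of all genes near 0.

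The gap between the 0 day samples bears on every comparison with 0 days. In these, 35 of 36 stress genes were higher in replicate 1 than in replicate 2, with ECM4 the exception, against 48.0% of all genes. The median size of the gap was 1.41 on the log2 scale, or 0.56 over all genes, and 26 of 36 stress genes had a gap above 1, against 25.8% of all genes. It was widest for UGA2 (4.01), GAD1 (3.39), PNC1 (2.92) and GRE1 (2.76), and narrowest for BDH2 (0.11), HOR7 (0.41), MRP8 (0.41) and GSP2 (0.44). At the other times the median gap of the stress genes was smaller, at 0.41 for 3 days, 0.48 for 7 days and 0.50 for 14 days. Over all genes the median gap at these times was 0.44, 0.38 and 0.42. Replicate 1 was the higher one for 26, 28 and 28 of the 36 genes, against 48.7%, 46.6% and 47.7% of all genes. The stress genes thus leaned to replicate 1 at every time. By array, 21 of the 36 genes had their lowest signal in 0 day replicate 2 and 17 their highest in 14 day replicate 1, against 15.8% and 10.5% of all genes.

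**Figure D2:**
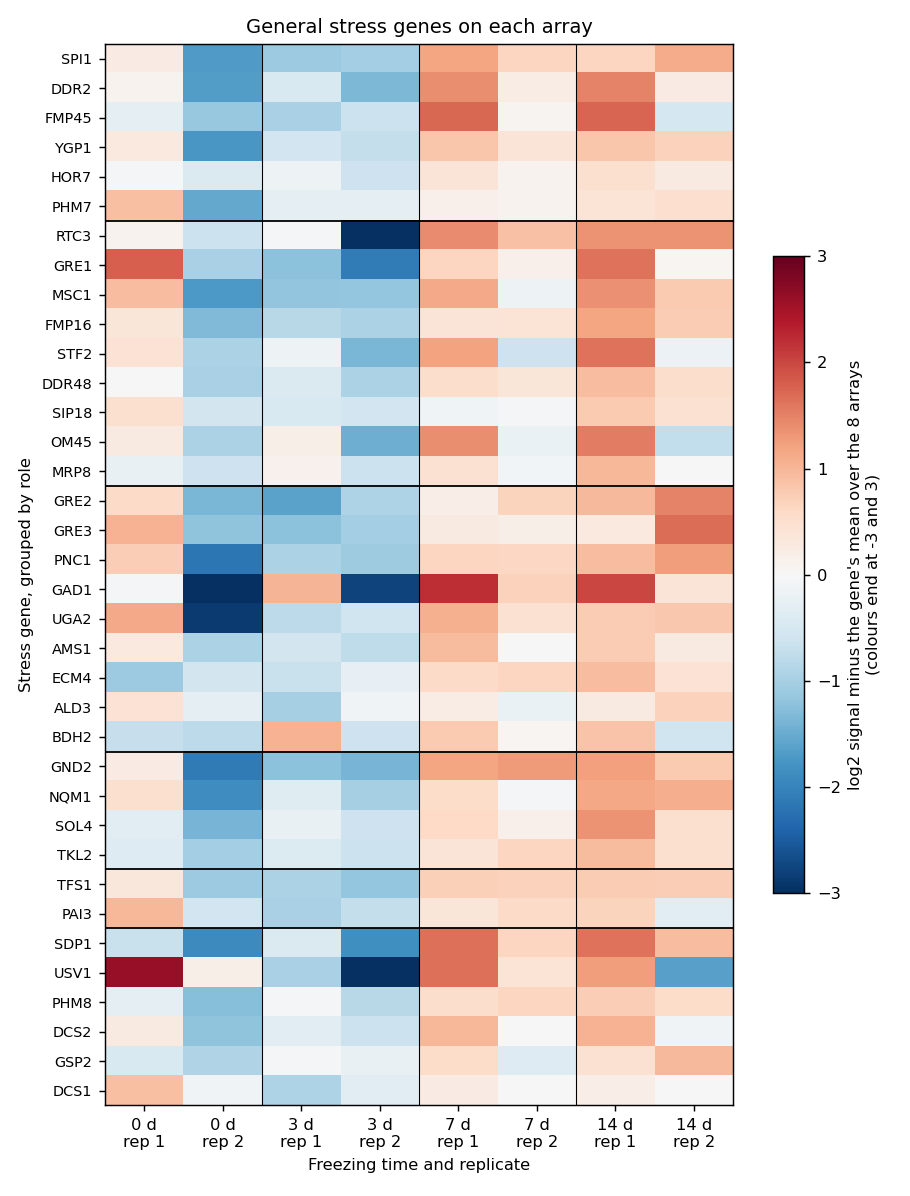
Log2 signal of each of the 36 tested stress genes (rows, grouped by role with black lines between roles) on each array (columns), minus the gene's mean over the 8 arrays. Red marks a signal above that mean and blue one below it. The 3 day arrays and 0 day replicate 2 are mostly blue, and the 7 and 14 day arrays mostly red, with USV1 and BDH2 among the exceptions.

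By group means, 26 of the 36 genes were highest at 14 days, 8 at 7 days, 0 at 3 days and 2 at 0 days. Over all genes these shares were 26.0%, 24.7%, 29.0% and 20.3%. The lowest mean was that of 3 days for 23 genes and of 0 days for 13, against 27.2% and 32.0% of all genes, so the second count is near its background.

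The comparison of 14 with 3 days showed the widest shift. Of the 36 genes, 4 rose (limma, Benjamini-Hochberg adjusted p under 0.05) and 0 fell, against 2.56% of all genes called higher, 2.02% called lower and 4.59% in all. The log2 fold change lay above 0 for 35 of 36 genes, against 50.9% of all genes. Its median was 1.42, against 0.02 over all genes, and 29 of 36 genes stood at 1 or more, as did 15.9% of all genes. Both 14 day arrays lay above both 3 day arrays for 30 of 36 genes, against 28.6% of all genes. The median was 1.51 within replicate 1 and 1.40 within replicate 2.

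The 4 genes that rose after 14 days relative to 3 days have unlike roles. GRE2, an NADPH-dependent reductase of methylglyoxal and other carbonyls, rose 5.62-fold (2.49 ± 0.58 SE on the log2 scale, limma adjusted p = 0.0397, with 2 arrays at each time). SDP1, a phosphatase of the cell integrity kinase Slt2, rose 5.34-fold (2.42 ± 0.60 SE, limma adjusted p = 0.0477). TFS1, an inhibitor of the vacuolar carboxypeptidase Y, rose 3.48-fold (1.80 ± 0.45 SE, limma adjusted p = 0.0468). DDR48, a protein induced by DNA damage and other stress, rose 2.66-fold (1.41 ± 0.34 SE, limma adjusted p = 0.0424).

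The number of genes called here rested on single arrays. It was 0 without 14 day replicate 1 or 2, 3 day replicate 2 or 7 day replicate 1 or 2, and 2 without 3 day replicate 1. Leaving out 0 day replicate 1 gave 13 and leaving out 0 day replicate 2 gave 14, although these arrays enter this comparison only through the shared estimate of the spread. The median of the 36 genes ran from 1.13 to 1.65 over the same alternatives.

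**Figure D3:**
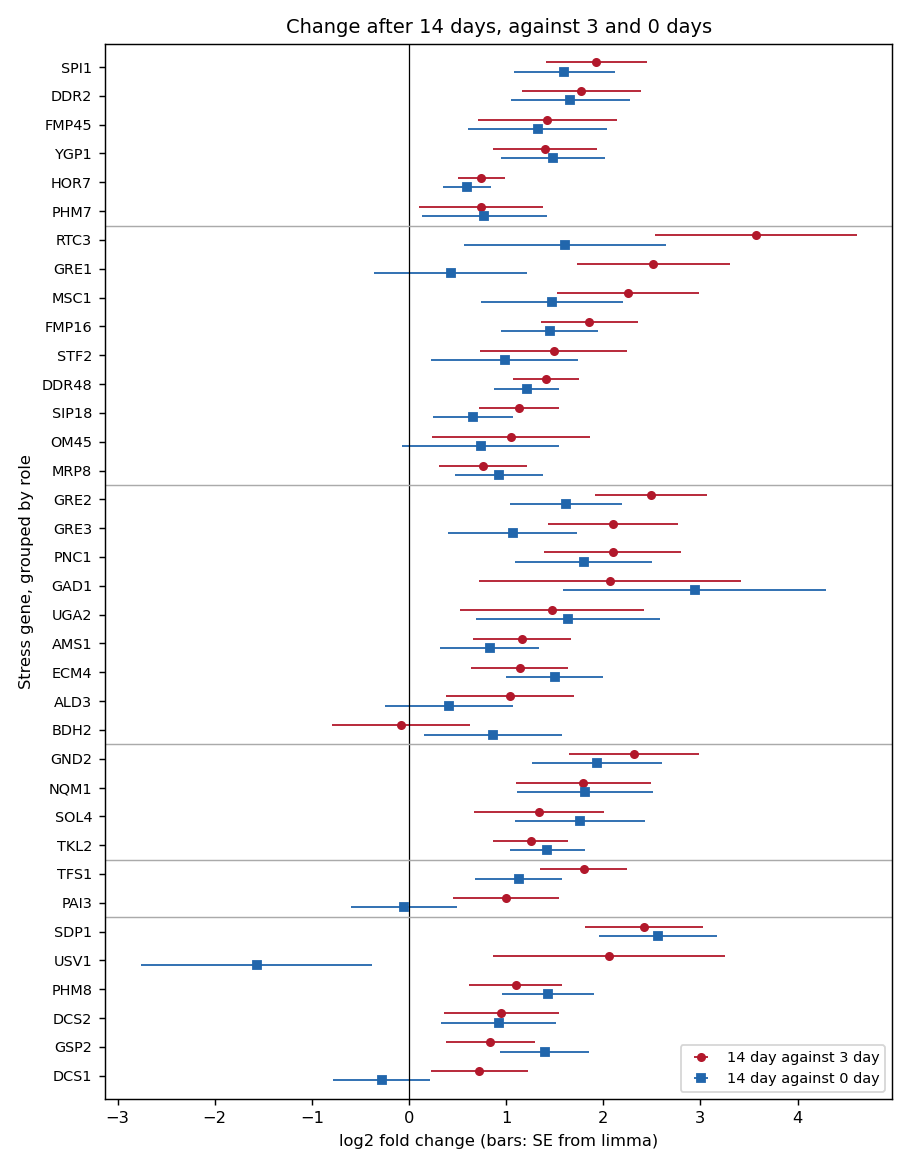
Log2 fold change (x axis) of each tested stress gene (rows, grouped by role) after 14 days against 3 days (red circles) and against 0 days (blue squares). Bars are standard errors from limma. Against 3 days 35 of 36 genes lie above 0, and against 0 days 33 of 36.

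After 7 days relative to 3 days, all 36 stress genes had a log2 fold change above 0, against 53.9% of all genes, with a median of 1.25 against 0.08. In limma 0 were called, against 0.752% of all genes called higher and 1.20% in either direction. At an unadjusted p under 0.05, 19 of 36 were higher and 0 lower, against 11.8% and 8.54% of all genes. Both 7 day arrays lay above both 3 day arrays for 29 of 36 genes and below them for 0, against 30.3% and 24.8% of all genes. The median was 1.33 within replicate 1 and 1.14 within replicate 2. The smallest adjusted p among them belonged to TFS1 (1.75 ± 0.45 SE, limma adjusted p = 0.0736). Without either 0 day array 6 of the genes were called, and without 3 day replicate 1, 1 was.

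Between 14 and 7 days the stress genes had no called difference. Their median log2 fold change was 0.15, against -0.05 over all genes, and 0 of 36 genes passed the limma threshold or an unadjusted p under 0.05. Of all genes, 0 were called and 0.289% were higher and 0.636% lower at an unadjusted p under 0.05. The log2 fold change lay above 0 for 26 of 36 stress genes, against 43.7% of all genes. Both 14 day arrays lay above both 7 day arrays for 9 of 36 and below them for 0, against 10.2% and 16.1% of all genes. The median moved to 0.48 without 7 day replicate 1 and to -0.04 without 7 day replicate 2.

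Against 0 days, the stress genes were mostly higher after 14 days, with 0 called by limma. The median log2 fold change was 1.36, against 0.11 over all genes, and 33 of 36 genes lay above 0, against 55.6% of all genes. Of all genes, 1.0% were called higher and 0.732% lower, or 1.73% in all. Without adjustment, 17 of 36 had a p under 0.05 with a higher signal and 0 with a lower one, against 12.8% and 9.37% of all genes. Both 14 day arrays lay above both 0 day arrays for 21 of 36 genes, against 28.0% of all genes. The median was 0.72 within replicate 1 and 1.84 within replicate 2. It was 1.83 without 0 day replicate 1, where 14 genes were called, and 0.54 without 0 day replicate 2, where 0 were.

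After 7 days relative to 0 days the median was 0.94, against 0.17 over all genes, and 0 of 36 genes were called by limma, against 0.212% of all genes. At an unadjusted p under 0.05, 12 were higher and 0 lower, against 12.2% and 6.75% of all genes. The log2 fold change lay above 0 for 31 of 36 genes and was 1 or more for 16, against 59.0% and 15.4% of all genes. Both 7 day arrays lay above both 0 day arrays for 19 of 36 genes, against 29.8% of all genes. The median was 0.59 within replicate 1 and 1.45 within replicate 2. Arrays can also be grouped by the mean log2 signal of poly(A) control probe sets. The lower array of each time was put in set 1 and the higher in set 2. This signal was 4.22 and 4.35 in replicates 1 and 2 of 0 days, so the 0 day split rests on a small gap. It was 5.70 and 3.96 at 3 days, 6.97 and 4.61 at 7 days and 6.24 and 4.89 at 14 days. Set 1 thus holds replicate 1 of 0 days but replicate 2 of the other times. By these sets the median was 0.08 in set 1, with 20 of 36 genes above 0 against 57.2% of all genes, and 1.81 in set 2. The same medians were 0.34 and 2.13 for 14 against 0 days and -1.24 and 0.62 for 3 against 0 days. The median for 7 against 0 days was 1.68 without 0 day replicate 1, where 7 genes were called, and 0.29 without 0 day replicate 2. These comparisons and that of 14 days share the 0 day arrays.

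After 3 days relative to 0 days, 13 of 36 stress genes lay above 0, against 55.3% of all genes, and the median was -0.25, against 0.08. In limma 0 of 36 genes and 0 of all genes were called. At an unadjusted p under 0.05, 0 were higher and 2 lower, against 4.14% and 2.87% of all genes. The sign of the median depended on the 0 day sample: it was 0.40 without replicate 1 and -0.99 without replicate 2. It was also 0.07 without 3 day replicate 2 and 0.07 without normalisation, with all genes at a median of 0.34. Without 3 day replicate 1, RTC3 alone was called as lower (-4.16, limma adjusted p = 0.0424), and its remaining 3 day signal was 3.16, near the floor. None of the 36 genes stood at 1 or more, against 5.86% of all genes. The count of 6 that stood at -1 or less cannot be judged, as that share was not counted over all genes. Among these, USV1 and RTC3 had a 3 day array at or near the floor. Both 3 day arrays lay below both 0 day arrays for 4 of 36 genes and above them for 2. Over all genes these shares were 14.2% and 20.9%, so the first count is near its background.

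A linear contrast over the order of the 4 times, which draws on all 8 arrays, called 10 of 36 stress genes as rising and 0 as falling, against 5.96% and 4.38% of all genes (limma, Benjamini-Hochberg adjusted p under 0.05). The 10 were SDP1, DDR48, TKL2, SPI1, GND2, TFS1, GRE2, FMP16, PHM8 and ECM4. The median slope of the 36 genes was 0.52 on the log2 scale per step from one time to the next, against 0.05 over all genes. The slope does not describe an even rise. By single steps the median of the 36 genes was -0.25 from 0 to 3 days, 1.25 from 3 to 7 days and 0.15 from 7 to 14 days. In the moderated F test for any difference among the times, 0 of 36 were called, against 2.58% of all genes, and 18 had an unadjusted p under 0.05, against 21.4%. The trend count was 19 without 0 day replicate 1 and 0 without 0 day replicate 2. Leaving out a 3 day array gave 4 (replicate 1) or 3 (replicate 2), leaving out a 7 day array gave 2 (replicate 1) or 4 (replicate 2), and leaving out either 14 day array gave 0. In the F test 12 genes were called without 0 day replicate 1, 7 without 0 day replicate 2 and 1 without 3 day replicate 1.

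**Figure D4:**
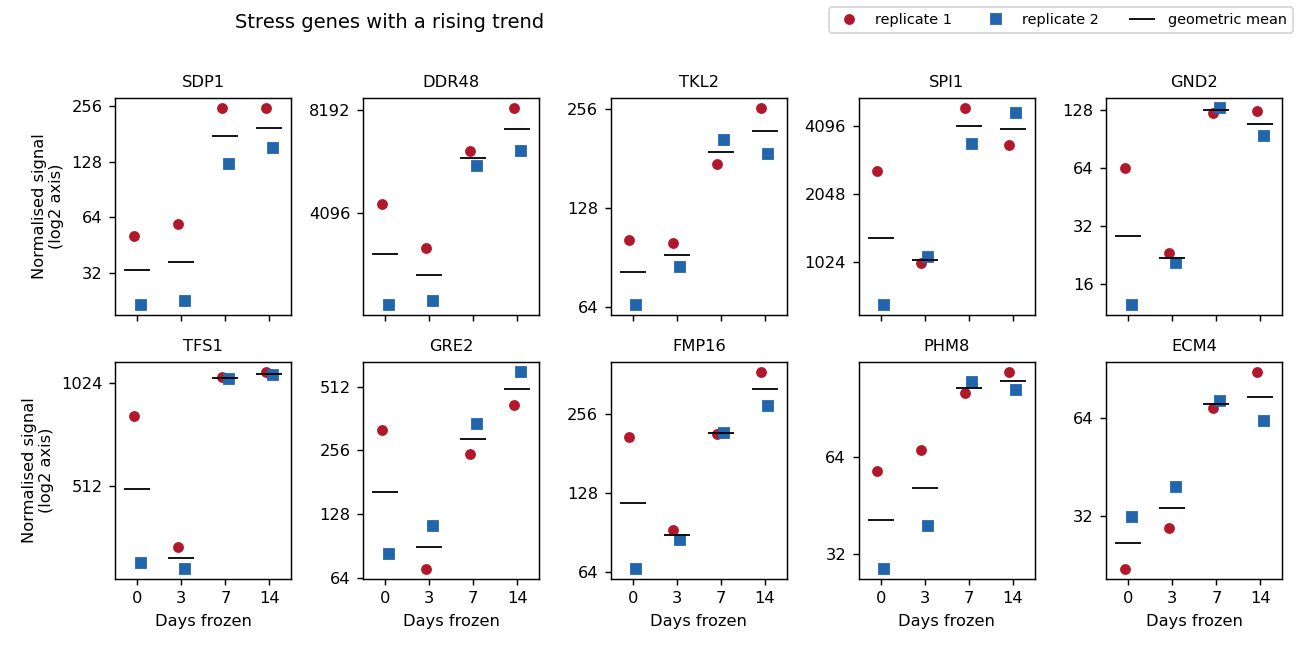
Normalised signal (y axis, log2 scale) of the 10 stress genes with a called rising trend, by days frozen (x axis, evenly spaced). Circles are replicate 1, squares replicate 2 and dashes the geometric mean of the pair. In every panel the 7 and 14 day points lie above both 3 day points, and in GND2, TFS1, FMP16, SPI1 and GRE2 the 0 day points lie far apart.

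Among genes of the cell surface, SPI1 and YGP1 had the smallest p after 14 days relative to 0 days. SPI1, a GPI-anchored protein of the cell wall, read 2596 and 665 at 0 days, 1016 and 1076 at 3 days, 4937 and 3403 at 7 days and 3378 and 4683 at 14 days. All 4 late arrays (7 and 14 days) were above all 4 early ones (0 and 3 days). For this pattern, named for several genes below, no share over all genes was computed. Apart from DDR2, these genes were picked by a small p or a call in these same data. The pattern is thus no separate support for them. Its trend was 0.68 ± 0.16 SE per step (limma adjusted p = 0.0323), and after 14 days relative to 3 days it stood at 1.93 ± 0.52 SE (limma adjusted p = 0.0595). YGP1, a secreted glycoprotein made when nutrients run low, gave signals of 1673 and 405, 912 and 836, 2422 and 1784, and 2416 and 2200 at 0, 3, 7 and 14 days. Here too every late array was above every early one, with 0 day replicate 1 next below them. The log2 fold change of YGP1 at 14 days was 1.40 ± 0.54 SE against 3 days (limma adjusted p = 0.141) and 1.49 ± 0.54 SE against 0 days (limma adjusted p = 0.142).

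DDR2 and HOR7 encode small related proteins that many stresses induce. DDR2 had signals of 3280 and 964 at 0 days, 2250 and 1205 at 3 days, 8126 and 3557 at 7 days and 8631 and 3660 at 14 days. Its replicates lay apart at every time, replicate 1 being the higher, and the late arrays did not overlap with the early ones. Its trend was 0.67 ± 0.19 SE per step, just outside the threshold (limma adjusted p = 0.0507). HOR7 was brighter with smaller differences, at 0.74 ± 0.24 SE after 14 days against 3 days (limma adjusted p = 0.102). FMP45, an integral membrane protein of the cell cortex, had 0 day signals of 102 and 56.0 but split late ones, of 408 and 131 at 7 days and 415 and 86.2 at 14 days. PHM7, a membrane protein of unclear role, stood at 0.74 ± 0.64 SE for 14 against 3 days. The reticulon gene RTN2 was too dim to test, between the floor of 2.52 and 14.7 on all arrays.

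DDR48 was the clearest of the protective and less understood genes. It read 4353 and 2215 at 0 days, 3230 and 2264 at 3 days, 6225 and 5621 at 7 days and 8291 and 6225 at 14 days. Late arrays were all above early ones, and the trend was 0.48 ± 0.11 SE (limma adjusted p = 0.0259). A dimmer second probe set of DDR48 gave 1.79 for 14 against 3 days and 0.93 for 14 against 0 days, against 1.41 and 1.21 for the brighter one. FMP16, found in mitochondria, had signals of 209 and 65.9, 92.5 and 84.6, 216 and 217, and 371 and 277 at 0, 3, 7 and 14 days. Its late arrays again all exceeded the early ones, though 0 day replicate 1 was close to the 7 day level, and its trend was 0.56 ± 0.16 SE (limma adjusted p = 0.0472).

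GRE1 and SIP18 are paralogs that encode hydrophilins, small soluble proteins linked to survival of drying. GRE1 read 661 and 97.5 at 0 days, 80.6 and 44.4 at 3 days, 299.6 and 213 at 7 days and 590 and 199 at 14 days. The highest array was thus 0 day replicate 1 and the lowest 3 day replicate 2. At 14 days GRE1 stood at 2.52 ± 0.79 SE against 3 days (limma adjusted p = 0.0954) but 0.43 ± 0.79 SE against 0 days (limma adjusted p = 0.792), and at -0.95 without 0 day replicate 2. SIP18 had signals of 295 and 144, 155 and 141, 198 and 206, and 363 and 293 at 0, 3, 7 and 14 days. Its 0 day replicate 1 reached the 14 day level, and the differences at 14 days were 1.14 ± 0.41 SE against 3 days (limma adjusted p = 0.127) and 0.66 ± 0.41 SE against 0 days (limma adjusted p = 0.371).

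The others in this group were not called in any of the comparisons. RTC3, linked to RNA metabolism, had a log2 fold change of 3.57 ± 1.04 SE for 14 against 3 days (limma adjusted p = 0.0752). That value leans on 3 day replicate 2, with a signal of 3.16 near the floor, against 66.3 in replicate 1. MSC1 stood at 2.25 ± 0.73 SE in the same comparison (limma adjusted p = 0.102) and MRP8 at 0.76 ± 0.45 SE. OM45, a protein of the mitochondrial outer membrane, and STF2, a hydrophilin that also acts on the mitochondrial ATP synthase, were split by replicate at late times. OM45 read 462 and 96.6 at 14 days, and STF2 766 and 221.

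Among the enzymes, ECM4 and GRE2 had the smallest p after 14 days relative to 0 days. ECM4, an omega-class glutathione transferase, had signals of 21.9 and 31.8 at 0 days, 29.2 and 39.3 at 3 days, 69.1 and 72.4 at 7 days and 89.0 and 62.7 at 14 days. Early and late arrays did not overlap, and the 0 day replicates were close together. Its trend was 0.56 ± 0.16 SE (limma adjusted p = 0.0491). GRE2 read 320 and 82.8, 70.3 and 113, 246 and 340, and 417 and 600 at 0, 3, 7 and 14 days. Both 14 day arrays exceeded every other array, while 0 day replicate 1 lay between the 7 day arrays. Its trend was 0.66 ± 0.18 SE (limma adjusted p = 0.0460).

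PNC1, the nicotinamidase that starts the salvage of NAD, had signals of 1236 and 164 at 0 days, 380.5 and 353 at 3 days, 1158 and 1134 at 7 days and 1401 and 1751 at 14 days. The 2 samples of 0 days bracketed the 3 and 7 day arrays. The log2 fold change of PNC1 at 14 days was 2.10 ± 0.71 SE against 3 days (limma adjusted p = 0.111) and 1.80 ± 0.71 SE against 0 days (limma adjusted p = 0.170). GAD1 and UGA2 encode glutamate decarboxylase and succinate semialdehyde dehydrogenase, enzymes of the GABA shunt. GAD1 was at the floor of 2.52 in 0 day replicate 2 and at 4.01 in 3 day replicate 2, so its difference of 2.94 ± 1.35 SE for 14 against 0 days is uncertain (limma adjusted p = 0.231). For UGA2, the probe set used gave 1.64 ± 0.95 SE for 14 against 0 days, with 10.4 in 0 day replicate 2, and its second probe set gave 0.20. The name of the one used marks probes shared between sequences.

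The aldose reductase GRE3 stood at 2.10 ± 0.67 SE for 14 against 3 days (limma adjusted p = 0.0979) and the vacuolar mannosidase AMS1 at 1.16 ± 0.51 SE. The aldehyde dehydrogenase ALD3 stood at 1.04 ± 0.66 SE. BDH2, a putative alcohol dehydrogenase, was the only one of the 36 genes below 0 in this comparison, at -0.08 ± 0.71 SE, with 83.2 and 26.3 at 3 days.

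The 4 genes of the pentose phosphate pathway, which makes NADPH and pentoses, had all arrays of 14 days above all arrays of 3 days and of 0 days, against 28.6% and 28.0% of all genes. In limma 0 of the 4 were called in either comparison. They are stress-linked copies of enzymes for which yeast has a main form. TKL2, a transketolase, read 103 and 65.3 at 0 days, 100.2 and 84.7 at 3 days, 175 and 206 at 7 days and 258 and 187 at 14 days. All late arrays lay above all early ones, and the trend was 0.53 ± 0.12 SE (limma adjusted p = 0.0283). Its other probe sets gave 1.56 and 0.55 for 14 against 3 days, against 1.25 for the one used, whose name marks probes shared within a group of sequences. GND2, a 6-phosphogluconate dehydrogenase, gave 64.4 and 12.5, 23.3 and 20.5, 124 and 131, and 126 and 93.8 at 0, 3, 7 and 14 days. Late arrays exceeded early ones here as well, and its trend was 0.84 ± 0.21 SE (limma adjusted p = 0.0359). SOL4, a 6-phosphogluconolactonase, and NQM1, a transaldolase, had trends of 0.61 ± 0.21 SE and 0.64 ± 0.22 SE that were not called (limma adjusted p = 0.0848 and 0.0845).

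TFS1 and PAI3 encode inhibitors of vacuolar proteases, carboxypeptidase Y and proteinase A. TFS1 had signals of 820 and 304 at 0 days, 338 and 292 at 3 days, 1068 and 1050.3 at 7 days and 1103 and 1081 at 14 days. Its 4 late arrays were nearly level and above all others, and its trend was 0.51 ± 0.14 SE (limma adjusted p = 0.0445). PAI3 read 161 and 54.8, 41.5 and 49.4, 105 and 121, and 129 and 64.0 at 0, 3, 7 and 14 days. Its highest array was 0 day replicate 1. After 14 days PAI3 stood at 1.003 ± 0.55 SE against 3 days (limma adjusted p = 0.289) and -0.05 ± 0.55 SE against 0 days (limma adjusted p = 0.970). On unnormalised values the second was 0.53, and with equal array medians 0.10.

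Among regulators and genes of nucleotide and cap turnover, SDP1 had the steepest called slope of the 36 genes. It read 50.8 and 21.6 at 0 days, 59.3 and 22.6 at 3 days, 251 and 125 at 7 days and 251 and 153 at 14 days. Every late array was above every early one, and the trend was 0.997 ± 0.19 SE (limma adjusted p = 0.0145). After 14 days against 0 days it stood at 2.56 ± 0.60 SE (limma adjusted p = 0.0595). GSP2, a Ran-type GTPase of nuclear transport, had signals of 51.8 and 38.1, 69.9 and 61.2, 105 and 54.7, and 97.2 and 141 at 0, 3, 7 and 14 days. Only its 14 day arrays were clear of all 4 early ones, and its trend was 0.44 ± 0.15 SE (limma adjusted p = 0.0740). PHM8, a phosphatase of nucleotides and lysophosphatidic acid, read 57.9 and 28.8, 67.5 and 39.1, 101 and 109, and 117 and 103. Late and early arrays did not overlap, and its trend was 0.53 ± 0.15 SE (limma adjusted p = 0.0478).

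USV1, a zinc finger transcription factor, and DCS1 were the stress genes with their highest mean at 0 days. USV1 read 175 and 32.4 at 0 days, 14.7 and the floor of 2.52 at 3 days, 90.3 and 38.3 at 7 days and 69.1 and 9.32 at 14 days. It stood at -1.57 ± 1.19 SE for 14 against 0 days (limma adjusted p = 0.461) and at 2.06 ± 1.19 SE for 14 against 3 days (limma adjusted p = 0.318). XBP1, a repressor of growth genes under stress, was below the filter, with 14.4 and 4.37 at 0 days, 33.7 and 4.23 at 3 days, 51.5 and 11.5 at 7 days and 35.2 and 23.3 at 14 days. The scavenger decapping enzyme DCS1 read 104 and 51.5 at 0 days, and stood at -0.28 ± 0.50 SE for 14 against 0 days. Its paralog DCS2, which restrains it, stood at 0.92 ± 0.59 SE.

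The pentose phosphate genes and the main forms of the same enzymes had opposite signs for 14 against 3 days, and for 14 against 0 days in 3 of 4 pairs, with SOL4 at 1.76 and SOL3 at 0.25 in the other. After 14 days relative to 3 days, TKL1, the main transketolase, fell by 1.33 ± 0.33 SE on the log2 scale (limma adjusted p = 0.0457), where TKL2 stood at 1.25 ± 0.39 SE. TKL1 read 928 and 931 at 14 days, against 1973 and 2755 at 3 days. In the trend over all times, TKL1 (-0.54 ± 0.10 SE, limma adjusted p = 0.0145) and the main transaldolase TAL1 (-0.50 ± 0.12 SE, limma adjusted p = 0.0336) fell, while TKL2 and GND2 rose. The main dehydrogenase GND1 stood at -0.70 ± 0.32 SE and the lactonase SOL3 at -0.64 ± 0.48 SE for 14 against 3 days, with neither called. SOL3 read 528 and 817 at 14 days, against 652 and 1599 at 3 days, so its arrays overlapped. TAL1 stood at -1.41 in this comparison and was not called. The difference between a gene and its paralog was not tested in itself.

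**Figure D5:**
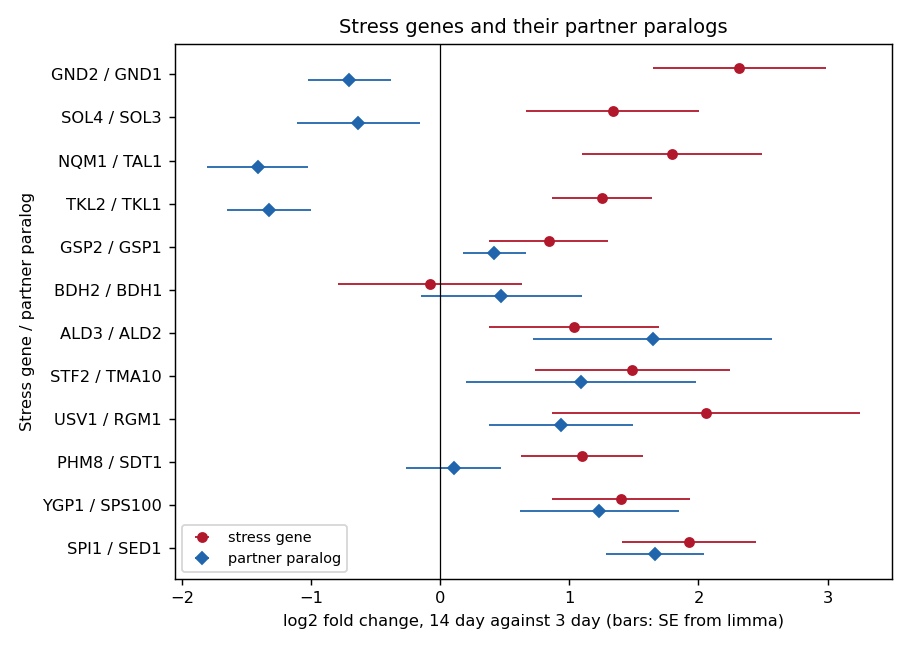
Log2 fold change after 14 days against 3 days (x axis) of 12 stress genes (red circles) and their partner paralogs (blue diamonds), 1 pair per row, with standard errors from limma as bars. In the 4 pentose phosphate pairs at the top the stress gene lies above 0 and its partner below, and in the lower pairs both lie above 0 except for BDH2.

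For the other paralogs the picture was mixed. SED1, a wall protein related to SPI1, rose after 14 days relative to 3 days (1.67 ± 0.38 SE, limma adjusted p = 0.0372), as well as after 7 days (1.91 ± 0.38 SE, limma adjusted p = 0.0452). SPS100, the paralog of YGP1, stood at 1.23 and the STF2 paralog TMA10 at 1.09 for 14 against 3 days, and GSP1 at 0.42. Over the 13 partner genes, 1 rose and 1 fell in that comparison, against 2.56% and 2.02% of all genes, and the median was 0.42, against 0.02 over all genes.

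Stress targets that were left out of the list lay close to it. Of 26 genes for heat shock proteins, antioxidant enzymes, trehalose, glycogen and hexose use, 6 rose and 0 fell after 14 days relative to 3 days, against 2.56% and 2.02% of all genes. Their median was 1.67, against 0.02 over all genes. The 6 were HSP12, HSP42, SOD2, PRX1, GSY1 and GSY2. Against 0 days, 2 rose after 14 days, against 1.0% of all genes, and the median was 1.21, against 0.11 over all genes. The 2 were the membrane-protecting HSP12 (1.28 ± 0.26 SE, limma adjusted p = 0.0381) and the small heat shock protein gene HSP42 (1.76 ± 0.36 SE, limma adjusted p = 0.0415). HSP12 read 8872 and 7999 at 14 days, against 3855 and 3133 at 0 days. The catalase gene CTT1 stood at 3.30 ± 0.87 SE (limma adjusted p = 0.0773). Its signal in 0 day replicate 1 was at the floor.

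Of 28 stress signalling genes, from Ras and protein kinase A to Hog1 and Snf1, 1 rose and 0 fell after 14 days relative to 3 days, against 2.56% and 2.02% of all genes, so the count is near that background. Their median was 0.46, against 0.02 over all genes, and both 14 day arrays lay above both 3 day arrays for 16 of 28, against 28.6% of all genes. The difference between these genes and the stress genes was not tested. The one that rose was MSN2 (2.27 ± 0.54 SE, limma adjusted p = 0.0424), with signals of 473 and 786 at 14 days, against 79.1 and 202 at 3 days. Its 0 day arrays read 371 and 159, and against them it stood at 1.33 ± 0.54 SE (limma adjusted p = 0.188). MSN4 stood at 1.76 ± 1.10 SE against 3 days (limma adjusted p = 0.354).

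Position on the chromosome linked a few of the genes. DDR48 (YMR173W), PAI3 (YMR174C) and SIP18 (YMR175W) are direct neighbours in the RefSeq annotation of assembly R64, and GAD1 (YMR250W) and HOR7 (YMR251W-A) have 1 gene between them. The neighbours did not share a profile in full: DDR48 had its highest signal, 8291, in 14 day replicate 1, while PAI3 had its highest, 161, in 0 day replicate 1.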

How the data were processed

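Messenger RNA was measured on 8 Affymetrix arrays, 2 per freezing time. Per the labels' protocols, RNA was taken by hot phenol extraction, enriched for poly(A) RNA and labelled with biotin. The values deposited by the authors are linear intensities, 1 for each probe set. Neither the software behind them nor a scaling step is named in the sources used here. Of 9335 probe sets 60 were controls, and a platform annotation gave 6504 exactly 1 gene, 328 several and 2443 none. The RefSeq table of assembly R64 changed 0 symbols.

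After removal of controls, quantile normalisation was applied to the arrays. A floor was set at the pooled 5th percentile (2.52) before log2 was taken. A probe set needed a mean log2 signal of at least 4.16, the 25th percentile, and the brightest probe set stood for a gene. In R 4.3.3, limma 3.58.1 fitted 1 coefficient per time to all 8 arrays (4 residual and 6.89 prior degrees of freedom), with an intensity trend. Tests were two-sided, with Benjamini-Hochberg adjustment over the 5188 genes of each comparison, and an adjusted p under 0.05 made a call. The fit was run on simulated data with independent noise for each gene, and its pass rule covered only the size of planted changes. The simulated data held no shift shared by many genes, such as that between the 0 day samples. The run thus does not vouch for the calls.

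The stress genes and the other lists were chosen with earlier results of these data known. Signals on every array are given for the 2 genes of each role with the smallest p after 14 days relative to 0 days, for DDR2, XBP1, GRE1, SIP18 and PNC1, and for every stress gene called in a comparison. Other genes are named from the lists. Single signals of FMP45, RTN2, RTC3, OM45, STF2, BDH2, GAD1, UGA2, USV1 and DCS1 were chosen for the text after their values were seen. Alternatives covered normalisation, floor, filter, probe set choice, moderation, array weights, the samples in the fit, blocks and leaving out each array.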

Additional observations from a re-analysis of the deposited data

How the results depend on the processing

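The median of the stress genes kept its sign in the comparisons of 14 and 7 days with 3 and 0 days, and in the trend, under every alternative run. The number of genes called did not hold as well. On unnormalised values, 12 stress genes were called for 14 against 0 days, 19 for 7 against 0 days (median 1.79), 11 for 14 against 3 days, 17 for 7 against 3 days (median 1.81), 29 in the trend and 18 in the F test. There the median of all genes was 0.59, 0.98, 0.25 and 0.63 in these 4 comparisons, PAI3 stood at 0.53 for 14 against 0 days, and 386 of 403 genes called at 14 against 0 days were higher. With equal array medians 1 stress gene was called for 7 against 3 days and 2 in the F test, PAI3 stood at 0.10 for 14 against 0 days, and of 48 genes called in that comparison 35 were higher, against 52 of 90. The F test called 1 stress gene with the floor at the 10th percentile, 1 with the mean of probe sets and 1 with the filter at the median, where 1 was also called for 14 against 0 days. Without a filter 0 were called for 14 against 3 days and 4 in the trend, and without the intensity trend 0 and 2. Array weights gave 9 for 14 against 3 days, 4 for 7 against 3 days, 5 in the trend and 4 in the F test. A fit of only the groups compared gave 12 for 14 against 3 days and 5 for 7 against 3 days. Array set puts the array with the lower poly(A) control signal of each time into set 1. As a block it gave 1 for 14 against 0 days and 2 in the F test. Its 0 day split rested on log2 signals of 4.22 and 4.35.

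With the replicate block, which takes the replicate number as a term, 3 stress genes were called for 14 against 0 days, 2 for 7 against 0 days, 13 for 14 against 3 days, 6 for 7 against 3 days, 18 in the trend and 5 in the F test. The deviations of replicate 1 from the group mean correlated over all genes at 0.18 (3 and 7 days), 0.19 (3 and 14 days) and 0.29 (7 and 14 days), and over the stress genes at 0.44, 0.45 and 0.64. With 0 days they correlated over all genes at -0.09 (3 days), 0.09 (7 days) and 0.05 (14 days), and over the stress genes at 0.07, 0.11 and -0.03. The labels name no shared batch or day behind the numbers and each time has 2 samples, so the numbers were not taken to pair them.

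Leaving out 1 array at a time, the stress genes called ranged from 0 to 14 for 14 against 0 days, 0 to 7 for 7 against 0 days, 0 to 1 for 3 against 0 days, 0 to 14 for 14 against 3 days, 0 to 6 for 7 against 3 days, 0 to 19 in the trend and 0 to 12 in the F test. Their median ranged from 0.54 to 1.83 for 14 against 0 days, from 0.29 to 1.68 for 7 against 0 days, from -0.99 to 0.40 for 3 against 0 days, from 1.13 to 1.65 for 14 against 3 days, from -0.040 to 0.48 for 14 against 7 days and from 0.27 to 0.69 in the trend. GRE1 ranged from -0.95 to 1.81 for 14 against 0 days and from -0.077 to 0.75 in the trend, and PAI3 from -0.83 to 0.73 and from -0.12 to 0.35. Over all alternatives, the genes called among all genes ran from 0 to 403 for 14 against 0 days, 0 to 1422 for 7 against 0 days, 0 to 21 for 3 against 0 days, 2 to 441 for 14 against 3 days, 0 to 620 for 7 against 3 days, 0 to 6 for 14 against 7 days, 36 to 1215 in the trend and 11 to 871 in the F test. The cause of these shifts was not tested. With 2 arrays per time, a gene near the floor (GAD1, USV1, RTC3) has no reliable fold change. A planned search for stress response elements was not run.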
